A study of Mus musculus with 4 samples.

Results

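The enzymes that build cholesterol and fatty acids, and the proteins that control them, were followed across cardiac endothelial cells of Gata4 KO and control mice. The set held 29 genes chosen by name, out of 38087 genes in the deposited tables: 15 of the sterol branch, 8 of the fatty acid branch, 5 regulators and the sterol carrier gene Stard4. Of these, 28 were found by symbol, and Msmo1 was found by its Ensembl identifier, since the tables list it as Sc4mol. RNA sequencing gave 2 Gata4 KO libraries and 2 control libraries of endothelial cells sorted as eGFP+ CD31+ from cardiac ventricles. The Gata4 KO cells carried the Tie2-CreERT2 transgene and a Cre-dependent eGFP reporter in the Rosa locus on a C57BL/6 background, and are labelled Gata4-deficient. Control cells carried the same Cre transgene and reporter, were eGFP+ too, and are not labelled Gata4-deficient. Mice of a loxP-targeted Gata4 line were used, and neither the flanked part of the gene nor the presence of that allele in controls is stated. All mice, in both groups, ate tamoxifen chow at 40 mg/kg body weight for 4 weeks from 4 weeks of age, and cells were taken at 8 weeks. Tie2 regulatory sequence is active in endothelial cells and in some blood cells, and the sort required CD31 as well as eGFP. The descriptions of both control libraries join several numbers, though the title of the second does not, and no name of a Gata4 KO library does, so pooling of animals, if any, and genotype cannot be told apart.

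Cholesterol is made from acetyl-CoA through mevalonate, isoprenoid diphosphates, squalene and lanosterol, and fatty acids are made from the same acetyl-CoA by carboxylation, chain building, desaturation and elongation. Both branches answer to the SREBP transcription factors, of which the product of Srebf2 acts mostly on sterol genes and the main product of Srebf1 mostly on fatty acid genes. When sterol in the endoplasmic reticulum is low, Scap carries the SREBP precursors to the Golgi for cleavage, and when it is high the Insig proteins hold them back. Endothelial cells of the heart sit between circulating lipoproteins and cardiomyocytes and can take up lipid as well as make it.

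SREBPs bind promoters at short sterol response elements, often close to CCAAT boxes that bind NF-Y, so promoters of genes from both branches are shown first. They are those of Idi1, which had the highest difference of the set, of Hmgcs1, the textbook SREBP target, of Msmo1 and Dhcr7, whose groups were apart in the other direction, and of Fasn, the central enzyme of the fatty acid branch. The set of RefSeq promoters used here held none under the symbols Fdps, Fdft1, Sqle, Scd1, Scd2, Fads1 or Stard4, so the motif shares leave these genes out. RefSeq sequences on GRCm38.p6 matched the other 22 of the 29 genes. Each is 300 bases long and covers the start of transcription, and lies at chr13:8885356-8885655 on the plus strand for Idi1, chr13:119690101-119690400 plus for Hmgcs1, chr8:64733529-64733828 minus for Msmo1, chr7:143822917-143823216 plus for Dhcr7 and chr11:120824498-120824797 minus for Fasn. Capitals mark CCAAT on either strand and the sterol response element letters TCACNCCAC or CACCCCAC, which overlap each other where both match.
Idi1: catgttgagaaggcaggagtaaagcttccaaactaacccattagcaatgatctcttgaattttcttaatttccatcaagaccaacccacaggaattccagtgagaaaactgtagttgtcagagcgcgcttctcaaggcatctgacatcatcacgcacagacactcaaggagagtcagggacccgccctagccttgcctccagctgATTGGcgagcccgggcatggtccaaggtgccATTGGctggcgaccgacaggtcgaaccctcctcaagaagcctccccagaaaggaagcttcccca
Hmgcs1: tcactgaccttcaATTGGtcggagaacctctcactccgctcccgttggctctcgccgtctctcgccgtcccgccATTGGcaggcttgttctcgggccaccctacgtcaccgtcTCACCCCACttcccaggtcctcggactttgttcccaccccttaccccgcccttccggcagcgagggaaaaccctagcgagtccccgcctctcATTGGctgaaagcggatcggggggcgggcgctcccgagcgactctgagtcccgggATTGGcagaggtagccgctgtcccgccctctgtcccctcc
Msmo1: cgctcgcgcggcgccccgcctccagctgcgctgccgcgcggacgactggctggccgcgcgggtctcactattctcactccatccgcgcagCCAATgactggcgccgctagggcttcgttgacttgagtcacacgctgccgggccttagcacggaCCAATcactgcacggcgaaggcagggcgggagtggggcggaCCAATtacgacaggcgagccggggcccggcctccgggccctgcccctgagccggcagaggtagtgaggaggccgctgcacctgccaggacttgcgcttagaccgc
Dhcr7: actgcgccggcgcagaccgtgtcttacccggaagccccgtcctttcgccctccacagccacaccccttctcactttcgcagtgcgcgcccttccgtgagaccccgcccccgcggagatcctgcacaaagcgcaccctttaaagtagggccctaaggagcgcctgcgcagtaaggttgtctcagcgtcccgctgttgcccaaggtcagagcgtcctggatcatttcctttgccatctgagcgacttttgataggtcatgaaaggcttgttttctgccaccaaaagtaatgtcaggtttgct
Fasn: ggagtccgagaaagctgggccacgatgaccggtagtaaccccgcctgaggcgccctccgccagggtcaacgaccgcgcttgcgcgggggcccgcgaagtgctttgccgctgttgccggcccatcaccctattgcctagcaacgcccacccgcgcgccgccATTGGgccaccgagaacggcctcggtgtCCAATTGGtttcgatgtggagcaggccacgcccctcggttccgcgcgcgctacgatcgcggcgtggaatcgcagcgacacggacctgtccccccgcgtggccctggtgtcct
Hmgcs1 held the element in both spellings, as 1 overlapping run, and 4 CCAAT boxes, while Idi1 held 2 CCAAT boxes, Msmo1 held 3 and Fasn held 3, of which the last pair overlap. Dhcr7 held neither. TCACNCCAC was found in 1 of the 22 promoters, 4.55%, against 1.24% of all 32851 RefSeq promoters of that length, and CACCCCAC in 2, those of Acat2 and Hmgcs1, 9.09% against 2.87%. CCAAT was found in 16 of 22, 72.7% against 37.4%, and the GC box GGGCGG in 15, 68.2% against 35.7%. The GATA letters AGATAA were found in 1, that of Insig2, 4.55% against 11.2%, and the E-box CACGTG in 4, 18.2% against 7.15%. Both strands were searched for each motif, and a match is a run of letters and not a bound site. For each member 1 promoter was taken, the nearest to the annotated gene start, while the share over all promoters was not limited to 1 per gene. The promoter of Acaca starts at 84195188 on chromosome 11, inside the gene, which starts at 84129672.

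Deposited values were log2 values that had been centred by gene on the median of the 4 libraries, so a gene's level is lost and only its differences between libraries can be read. Depth is unknown. The test covered the 14470 genes that varied between libraries. Gata4 itself had -0.14 and -0.46 in the Gata4 KO libraries, against 0.48 and 0.14 in the controls, a log2 difference of -0.61 (SE 0.26, limma adjusted p = 0.663). Xist was at its lowest value in both controls, with a log2 difference of group means of 6.00, and Ddx3y was at its lowest value in both Gata4 KO libraries (log2 difference -3.27), so each difference given below may belong to sex or to genotype, which cannot be told apart. Both controls stood apart over the whole table: control 1 held the highest value in 34.2% of all tested genes, and control 2 the lowest in 37.0% of those without ties. All 12 endothelial markers, Pecam1 and Cdh5 among them, varied between libraries and had a median log2 difference of 0.10 (range -0.20 to 1.03). Both Gata4 KO libraries lay above both controls in 5 of these markers and below in 0, beside 15.7% and 17.3% of all tested genes. Their levels, and so the purity of the sort, cannot be read from centred values.

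In the fatty acid branch all 7 tested genes had a negative difference, led by the desaturase gene Scd1, which was 2.36-fold lower, and Fasn, which was 1.85-fold lower. Without control 1, though, Acaca, Elovl5 and Fads1 turned positive, Fads1 did so without Gata4 KO library 2 as well, and Fads2 without Gata4 KO library 1. Control 1 was also highest in all 10 fibroblast markers, whose library medians were -0.32 and -0.97 in Gata4 KO, against 1.30 and 0.32 in the controls, and their part in the fatty acid values was not tested. In bulk samples, fewer cells of a type and less RNA per cell cannot be told apart. In the sterol branch the genes divided: Idi1 was 1.92-fold higher, Msmo1 was 1.52-fold lower, and 6 of 13 had groups that overlapped, 46.2% beside 67.0% of all tested genes. The 5 regulators, Srebf2 and Srebf1 included, had differences between -0.29 and 0.12. None of the 26 tested members passed limma with Benjamini-Hochberg adjustment over all tested genes (adjusted p 0.403 to 0.997), beside 0% of all tested genes, and the lowest adjusted p of any gene was 0.0582. Mvd, Lss and Elovl6 were listed at 0 in all 4 libraries, so nothing can be read of them.

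At an unadjusted p under 0.05, limma gave 3 members with lower values in Gata4 KO, Scd1, Fasn and Msmo1, which is 11.5% of 26 beside 5.36% of all tested genes. It gave 1 with a higher value, Idi1, which is 3.85% beside 2.76%. The total of 4 dropped to 1 without Gata4 KO library 2 and to 2 without control 1. Both Gata4 KO libraries lay below both controls in 9 members, 34.6% beside 17.3% of all tested genes, and above both in 2, Idi1 and Acat2, 7.69% beside 15.7%. The sign was negative in 19 of 26, 73.1% beside 51.1% of all tested genes. These shares describe a set chosen with results of these data known. The 2 controls differed from each other by more than the groups did in 14 of the 26 members, beside 62.2% of all tested genes. In the pair of Gata4 KO libraries that was so in 12 members, beside 52.2%.

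**Figure D1:**
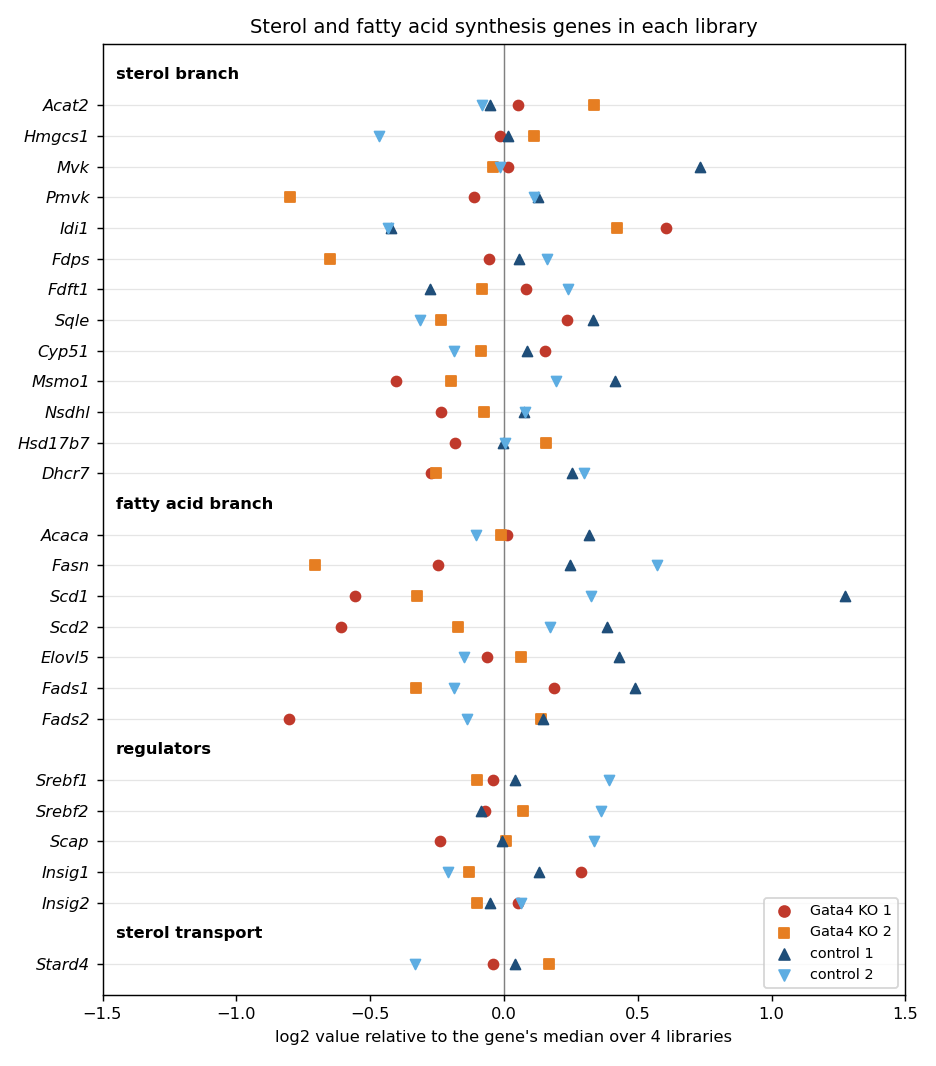
Log2 value of each tested member, relative to the gene's median over the 4 libraries (horizontal axis), in 2 Gata4 KO and 2 control libraries (symbols). Idi1 has both Gata4 KO libraries to the right of both controls, and Scd1, Fasn, Scd2, Msmo1 and Dhcr7 have them to the left. Control 1 lies far out in Scd1, at 1.28, and in Mvk, at 0.73.

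Sterol synthesis opens with enzymes that join acetyl-CoA units. Acat2 encodes the cytosolic thiolase of the first condensation. It had 0.052 and 0.34 in the Gata4 KO libraries, against -0.052 and -0.081 in the controls, a log2 difference of 0.26 (SE 0.23, limma adjusted p = 0.853). Its groups did not overlap, but Gata4 KO library 1 lay close to control 1. Hmgcs1, which encodes the synthase of HMG-CoA, had -0.014 and 0.11 in the Gata4 KO libraries and 0.014 and -0.47 in the controls, a difference of 0.28 (SE 0.26). Here control 2 was low and the other 3 libraries were close together.

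Kinases act next on mevalonate. Mvk, which phosphorylates mevalonate, had 0.015 and -0.040 in the Gata4 KO libraries and 0.73 and -0.015 in the controls, a log2 difference of -0.37 (SE 0.32) in which control 1 stood alone and the other 3 were alike. Pmvk, the kinase of the following step, had -0.11 and -0.80 in the Gata4 KO libraries, against 0.13 and 0.11 in the controls (log2 difference -0.57, SE 0.30, limma adjusted p = 0.776). The controls were close together, and Gata4 KO library 2 gave most of that difference. Fdps, which encodes farnesyl diphosphate synthase, had the same shape, with -0.057 and -0.65 in the Gata4 KO libraries, against 0.057 and 0.16 in the controls (difference -0.46, SE 0.29).

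Idi1 encodes the isomerase that turns isopentenyl diphosphate into dimethylallyl diphosphate, the starter of isoprenoid chains. The gene (ENSMUSG00000058258, mm10 chromosome 13, 8885501 to 8892451, protein coding) had 0.61 and 0.42 in the Gata4 KO libraries, against -0.42 and -0.43 in the controls. The 2 controls differed by 0.011 and the Gata4 KO libraries by 0.18, both far less than the gap between groups. The log2 difference was 0.94 (SE 0.22, 95% interval 0.38 to 1.51), higher than in 98.1% of all tested genes, and it did not pass adjustment (limma adjusted p = 0.403). It stayed between 0.85 and 1.03 when any 1 library was left out.

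The sources used here do not say how reads were assigned between copies of a gene, and some members share sequence with other annotated genes. Of the windows of 50 bases in the longest coding transcript, 30.5% of those of Idi1 also occur in transcripts of other genes, 21.3% in Gm13502, so its value is uncertain to that extent. The share was 86.4% for Fdps, most of it with the overlapping gene model Gm43738, 52.6% for Acaca, with Gm5182, and 45.9% for Acat2, with Acat3. It was 30.7% for Fdft1, chiefly with Ctsb, which overlaps it on the other strand, 13.6% for Hmgcs1 and 13.1% for Scap, both with a transcript on the opposite strand. Strand of counting is not stated. Msmo1, Dhcr7, Fasn, Pmvk and Nsdhl shared 0% and Scd1 and Scd2 4.66% and 4.01%.

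From the making of squalene to the demethylation of lanosterol, the tested genes were flat in the mean and wide in their spread. Lss, which acts between Sqle and Cyp51, did not vary and could not be read. Fdft1, which encodes squalene synthase, lies 19343 bases from Gata4 on chromosome 14, with 1 protein-coding gene between them. It had 0.081 and -0.081 in the Gata4 KO libraries and -0.27 and 0.24 in the controls, a difference of 0.018 (SE 0.27). Sqle, the squalene epoxidase that is a control point of the pathway, had 0.23 and -0.23 in the Gata4 KO libraries and 0.33 and -0.31 in the controls, so both groups spanned the same range (difference -0.0093, SE 0.33). Cyp51, the lanosterol demethylase, had 0.15 and -0.088 in the Gata4 KO libraries and 0.088 and -0.19 in the controls (difference 0.082, SE 0.24). The 95% intervals of these genes, -0.68 to 0.72 for Fdft1 and -0.86 to 0.84 for Sqle, leave room for differences of either sign.

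Past the step of Cyp51, several of the genes were lower in Gata4 KO. Msmo1 encodes the oxidase that starts removal of the methyl groups at carbon 4. The gene (ENSMUSG00000031604, chromosome 8, 64718139 to 64733792) had -0.40 and -0.20 in the Gata4 KO libraries, against 0.41 and 0.20 in the controls. All 4 libraries were spread out and the groups did not overlap (log2 difference -0.60, SE 0.23, 95% interval -1.20 to -0.0061, limma adjusted p = 0.606). Nsdhl, the dehydrogenase of the same demethylation and an X-linked gene, had -0.24 and -0.073 in the Gata4 KO libraries, against 0.073 and 0.077 in the controls (difference -0.23, SE 0.22). Hsd17b7, the reductase that completes it, had -0.18 and 0.16 in the Gata4 KO libraries around controls at -0.0048 and 0.0048 (difference -0.013, SE 0.24). Dhcr7 encodes the reductase of 7-dehydrocholesterol, a final step of the pathway. It (ENSMUSG00000058454, chromosome 7, 143823145 to 143848410) had -0.27 and -0.25 in the Gata4 KO libraries, against 0.25 and 0.30 in the controls. Replicates agreed closely in both groups (log2 difference -0.54, SE 0.21, limma adjusted p = 0.623).

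**Figure D2:**
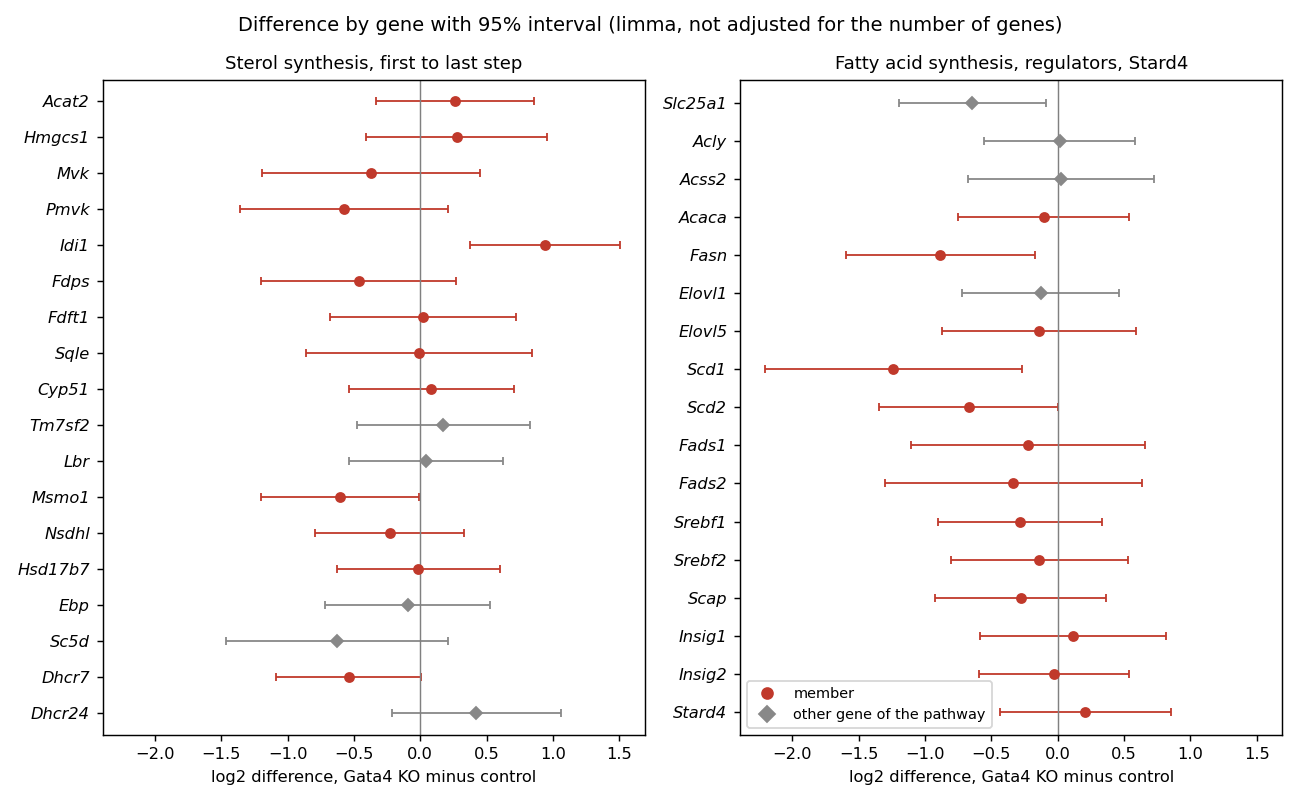
Log2 difference, Gata4 KO minus control (horizontal axis), with its 95% interval from limma, for members (circles) and other genes of the pathway (diamonds), in the order of the sterol pathway (left) and for fatty acid synthesis, regulators and Stard4 (right). Idi1 has its interval above 0, and Msmo1, Fasn and Scd1 have theirs below 0, without adjustment for the number of genes.

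In the fatty acid branch, Scd1 had the most negative difference of the set. It encodes a stearoyl-CoA desaturase, which makes monounsaturated fatty acids. The gene (ENSMUSG00000037071, chromosome 19, 44394455 to 44407879) had -0.56 and -0.32 in the Gata4 KO libraries, against 1.28 and 0.32 in the controls. Both Gata4 KO libraries were low, and control 1 lay well above control 2. The log2 difference was -1.24 (SE 0.38, 95% interval -2.21 to -0.27, limma adjusted p = 0.495). Without control 1 it was -0.76, so that library carries much of its size. Scd2, a desaturase gene that lies 87590 bases from Scd1, had -0.61 and -0.17 in the Gata4 KO libraries, against 0.38 and 0.17 in the controls (log2 difference -0.67, SE 0.26, limma adjusted p = 0.618).

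Fasn encodes fatty acid synthase, which builds palmitate. The gene (ENSMUSG00000025153, chromosome 11, 120805846 to 120824547) had -0.25 and -0.70 in the Gata4 KO libraries, against 0.25 and 0.57 in the controls. Each group was spread by less than the gap between them (log2 difference -0.88, SE 0.28, 95% interval -1.60 to -0.17, limma adjusted p = 0.515). Acaca, the acetyl-CoA carboxylase that feeds Fasn, had 0.0098 and -0.0098 in the Gata4 KO libraries and 0.32 and -0.11 in the controls, a difference of -0.11 (SE 0.25). The Gata4 KO values lay between those of the controls.

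The elongase and the desaturases of polyunsaturated fatty acids overlapped between groups. Elovl5, which lengthens polyunsaturated chains, had -0.065 and 0.065 in the Gata4 KO libraries and 0.43 and -0.15 in the controls. Fads1, the delta-5 desaturase gene, had 0.19 and -0.33 in the Gata4 KO libraries and 0.49 and -0.19 in the controls. Control 1 was the highest library in both. Fads2, the delta-6 desaturase gene and the neighbour of Fads1, had -0.80 and 0.14 in the Gata4 KO libraries and 0.15 and -0.14 in the controls. Gata4 KO library 1 alone was low, and the differences of Elovl5, Fads1 and Fads2, -0.14, -0.22 and -0.34, each turned positive without 1 of the libraries.

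Among the regulators the groups overlapped in 4 of 5, beside 67.0% of all tested genes. Srebf1 had -0.040 and -0.10 in the Gata4 KO libraries, against 0.040 and 0.39 in the controls (log2 difference -0.29, SE 0.24, limma adjusted p = 0.850). Srebf2 had -0.072 and 0.072 in the Gata4 KO libraries and -0.086 and 0.36 in the controls (difference -0.14, SE 0.26). Scap, the escort of both precursors, had -0.24 and 0.0074 in the Gata4 KO libraries and -0.0074 and 0.34 in the controls (difference -0.28, SE 0.25). In these 3 genes control 2 was the highest library and the other 3 lay closer together. Insig1, itself an SREBP target, had 0.29 and -0.13 in the Gata4 KO libraries and 0.13 and -0.21 in the controls (difference 0.12, SE 0.27). Insig2 had 0.054 and -0.10 in the Gata4 KO libraries and -0.054 and 0.064 in the controls (difference -0.028, SE 0.22). Control 2 was the highest library in 4 of the 5 regulators, beside 21.04% of all tested genes. Stard4, which moves sterol between membranes, had -0.040 and 0.17 in the Gata4 KO libraries and 0.040 and -0.33 in the controls (difference 0.21, SE 0.25).

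Related genes were set against each other within each library, where gene centring cancels from a difference between groups. Scd1 minus Scd2 was 0.053 and -0.15 in the Gata4 KO libraries, against 0.89 and 0.15 in the controls. The difference between groups was -0.57, but -0.20 without control 1 and -0.94 without control 2, with p = 0.333 over all 4 libraries by an exact permutation test (two-sided), which cannot go lower with 2 libraries in each group. The 4 pairs gave values of -0.15 for Srebf1 minus Srebf2, 0.14 for Insig1 minus Insig2 and 0.11 for Fads1 minus Fads2 besides, with exact permutation p between 0.333 and 1.0 and 0.889 to 1.0 after Benjamini-Hochberg adjustment over the 4. Elovl5 minus Elovl6 could not be read, as Elovl6 did not vary.

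The branches were then compared through their medians, given as descriptions. The median log2 difference was -0.34 over the 7 fatty acid genes and -0.013 over the 13 sterol genes. It was -0.14 over the 5 regulators, beside -0.0088 over all tested genes. Both Gata4 KO libraries lay below both controls in 3 of 7 fatty acid genes (42.9%) and in 5 of 13 sterol genes (38.5%). They lay above both in 0 fatty acid genes and 2 sterol genes (15.4%). Of all tested genes, 17.3% lay below and 15.7% above. Leaving out any 1 library made the sterol median more negative, at -0.23 to -0.018. By library, the fatty acid median was -0.25 and -0.17 in the Gata4 KO libraries, against 0.38 and -0.11 in the controls. The sterol median was -0.014 and -0.081 in the Gata4 KO libraries, against 0.073 and 0.0048 in the controls. The fatty acid median less the sterol median was -0.23 and -0.092 in the Gata4 KO libraries and 0.31 and -0.11 in the controls. Control 2 lay among the Gata4 KO libraries in that measure, and control 1 stood alone. Control 1 held the highest value in 6 of the 7 fatty acid genes, beside 34.2% of all tested genes, and without it the fatty acid median was -0.19. Left out 1 at a time, Gata4 KO library 1 gave a fatty acid median of -0.45, Gata4 KO library 2 gave -0.65 and control 2 gave -0.56. In the fatty acid median less the sterol median, Gata4 KO library 1, at -0.23, thus lay below both controls. Gata4 KO library 2, at -0.092, lay between the controls, at -0.11 and 0.31. With 2 libraries in each group, these medians cannot decide whether the branches differ. Means of the fatty acid genes were -0.30 and -0.19 in the Gata4 KO libraries, against 0.47 and 0.070 in the controls. Those of the sterol genes were -0.010 and -0.11 in Gata4 KO, against 0.10 and -0.031 in the controls. By means, the fatty acid branch thus lay below the sterol branch in both Gata4 KO libraries and above it in both controls. The place of control 2 depends on the summary used.

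**Figure D3:**
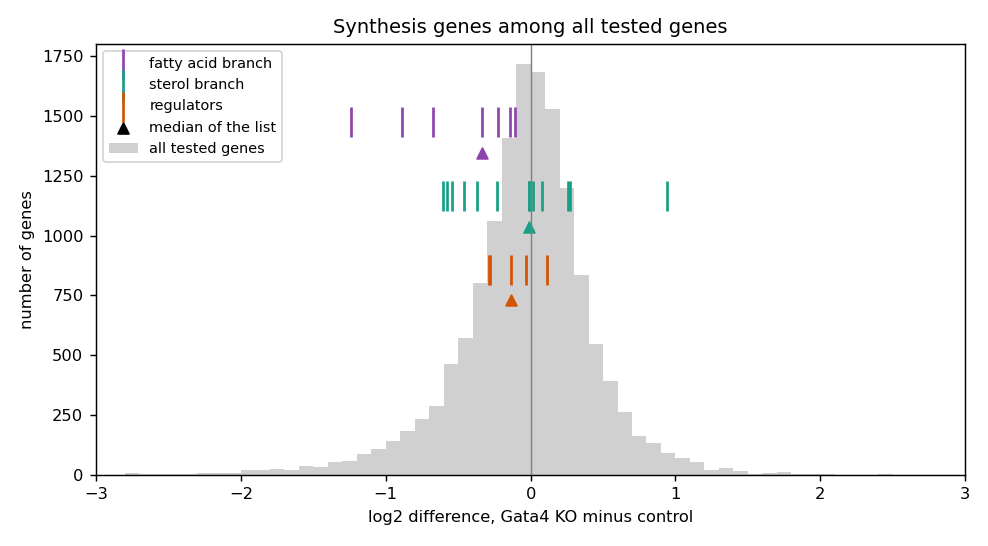
Number of tested genes (vertical axis) by log2 difference, Gata4 KO minus control (horizontal axis, 13 genes beyond its ends), with each member as a tick and the median of each list as a triangle. All 7 fatty acid ticks lie below 0, with a median of -0.34, while the sterol ticks run from -0.60 to 0.94 around a median of -0.013.

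Other genes of the pathway were read from lists of related genes. Of 12 further enzymes of sterol and isoprenoid metabolism, 10 were tested, with 2 above both controls, 2 below and 6 overlapping, and 1 lower at an unadjusted p under 0.05, beside shares of 15.7%, 17.3%, 67.0% and 5.36% of all tested genes. That gene was Cyp27a1, the sterol 27-hydroxylase, at -0.93 and -0.32 in the Gata4 KO libraries, against 0.32 and 0.45 in the controls (log2 difference -1.01, SE 0.29, limma adjusted p = 0.473). Sc5d, the desaturase that acts just before Dhcr7, had -0.27 and -0.076 in the Gata4 KO libraries, against 0.076 and 0.83 in the controls (difference -0.63, SE 0.32).

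Of 23 genes for sterol uptake, storage and efflux, 21 were tested, of which 10 lay below both controls, 1 above and 10 overlapped, beside 17.3%, 15.7% and 67.0% of all tested genes, with a median log2 difference of -0.24. None passed an unadjusted p of 0.05. Nr1h3, which encodes the oxysterol receptor LXR alpha, Gramd1b, a sterol transfer protein gene, and Abca1, the cholesterol efflux pump gene, had the largest differences among those whose groups did not overlap, at -0.93, -0.82 and -0.78 (limma adjusted p = 0.734, 0.688 and 0.635). Their order rests on single libraries, as Nr1h3 was -0.38 without control 2 and Gramd1b -0.39 and Abca1 -0.44 without Gata4 KO library 1. Abca1 had -0.84 and -0.16 in the Gata4 KO libraries, against 0.40 and 0.16 in the controls.

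The 9 genes of SREBP processing and degradation gave 3 above, 4 below and 2 overlapping, beside 15.7%, 17.3% and 67.0% of all tested genes, with a median of -0.073. At an unadjusted limma p under 0.05, 1 was higher, Trib1, and 1 lower, Rnf145, beside 2.76% and 5.36% of all tested genes. Trib1, a pseudokinase gene known to restrain lipogenesis in mouse liver, was at 0.32 and 0.38 in the Gata4 KO libraries, against -0.57 and -0.32 in the controls (log2 difference 0.80, SE 0.23, limma adjusted p = 0.471). Rnf145, a sterol-sensing ubiquitin ligase gene, lay at -0.25 and -0.39 in the Gata4 KO libraries, against 0.36 and 0.25 in the controls (difference -0.62), and Fbxw7, which marks SREBPs for degradation, had a difference of 0.32. Of 22 genes for acetyl-CoA supply, elongation and lipid assembly, 20 were tested, with a median of 0.020. They gave 3 above, 4 below and 13 overlapping, beside 15.7%, 17.3% and 67.0% of all tested genes. At an unadjusted limma p under 0.05, 1 was higher, Dgat1, and 1 lower, Slc25a1, beside 2.76% and 5.36%. Slc25a1, the citrate carrier that exports acetyl units for synthesis, had -0.40 and -0.29 in the Gata4 KO libraries, against 0.30 and 0.29 in the controls (difference -0.64, SE 0.21, limma adjusted p = 0.540). Thrsp, a lipogenic protein gene, had a difference of -0.65, and Dgat1, which makes triglyceride, one of 0.67.

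Markers of other cell types are given as values, since none passed adjustment. Beside 17.3% of all tested genes, all 10 fibroblast markers lay below both controls, with log2 differences of -2.06 to -0.89. Of 9 tested macrophage markers 8 lay below both controls, with medians of -0.48 and -0.30 in Gata4 KO, against 0.50 and 0.28 in the controls. Lymphatic endothelial markers were below in 6 of 8 and above in 1, and cardiomyocyte markers were below in 6 of 10 and above in 0. Smooth muscle and pericyte markers were below in 4 of 10 and above in 1, with 5 positive and 5 negative differences and a median of -0.021. Of all tested genes, 15.7% lay above both controls. Of 10 Schwann cell markers 6 were tested, 5 of them tied at their lowest value in several libraries, and 1 lay below both controls. Of 10 adipocyte markers, Adipoq, Plin1, Cidec, Lep, Cfd and Retn were flat over all 4 libraries, and the 4 tested had a median log2 difference of 0.16. The part of these other cells in the values of Scd1, Fasn, Nr1h3 or any other gene above was not tested.

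**Figure D4:**
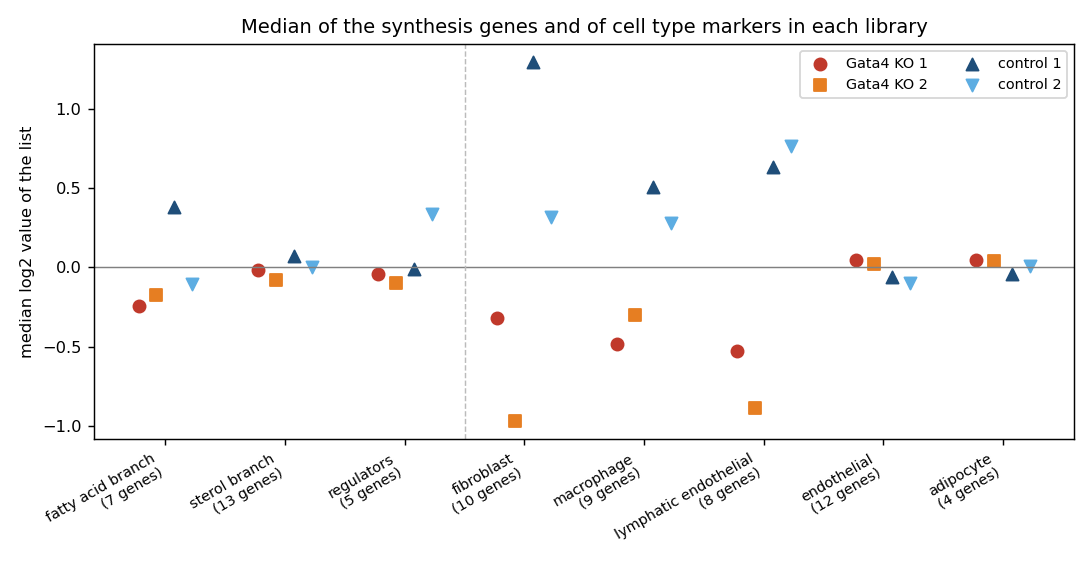
Median log2 value of each list of genes (vertical axis) in 2 Gata4 KO and 2 control libraries (symbols), for the synthesis genes on the left and markers of cell types on the right. Control 1 is highest in the fatty acid list, at 0.38, and in the fibroblast list, at 1.30. Control 2 is highest in the regulators, at 0.34. Medians of the sterol list, whose genes differ in both directions, lie within 0.081 of 0 in every library.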

How the data were processed

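The authors deposited log2 values of 4 libraries in a pair of tables, joined here. Per the file headers they were exported with fold changes and Ensembl identifiers, and per the submitters' processing notes the genome build was mm10. The aligner, the counting and the normalization are not stated in those sources. In each gene the deposited log2 values had been centred on the median of the 4 libraries (tolerance 1e-05), and the deposited signed fold matches the difference of group means, whose log2 the authors' column gives to within 3e-07. Depth is unknown, so no interval that needs counts was made. Groups came from the labels. Whether each library is a separate animal is not stated, so a p-value measures only how far these 4 libraries differ, and part of that may be technical.

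Of 38087 genes, 23617 did not vary over the 4 libraries and the other 14470 were tested with limma 3.58.1 in R 4.3.3 (lmFit, eBayes without a mean trend, two-sided, Benjamini-Hochberg over all tested genes, threshold 0.05), with 2.96 prior and 2 residual degrees of freedom. The fit was tested on simulated data. Genes tied at their lowest value in 2 (1011) or 3 libraries (1565) were kept, and none of the tested members was among them. Coordinates are from GENCODE M21 on mm10, which matched 36308 identifiers. Named beside the members were, from each list of related genes, the 3 tested genes with the largest absolute difference among those whose groups did not overlap, and Gata4, Xist and Ddx3y. A gene that this rule also chose is not reported here. The members and lists were chosen with earlier results of these data known. Alternatives changed the variance model, the filter on tied genes, the centring or scaling of libraries, and left out each library.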

Additional observations from a re-analysis of the deposited data

How the results depend on the processing

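Under every alternative run, 0 members passed an adjusted p of 0.05 by limma, beside 4 at an unadjusted p under 0.05 in the reported fit, 3 without tied genes, 6 with a mean trend, 5 after quantile normalization, 6 with endothelial centring and 1 to 4 without 1 library. Because values are centred by gene, a gene's mean is no expression level, so the mean trend has no basis in these data. Over all genes, 0 passed as reported, 27 with a mean trend and 51 without tied genes. The count was 7 with libraries centred on the median of tested genes, 0 after quantile normalization and 8 with libraries centred on the endothelial list. That last centring moved the median of all genes by -0.11, and the genes past an unadjusted p became 263 higher and 1075 lower, beside 399 and 776. It took the sterol median to -0.12, Fdft1 to -0.093 and Cyp51 to -0.029, moves of the size of that shift. Centring on the median of tested genes gave Sqle 0.0064, Hsd17b7 0.0024 and a sterol median of 0.0024, and quantile normalization gave Sqle 0.019. Xist and Ddx3y passed with a mean trend (adjusted p = 0.00735), with centring on tested genes (0.0442) and with endothelial centring (0.0288).

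Without 1 library, the sterol median ran between -0.23 and -0.018, the fatty acid median between -0.65 and -0.19 and the regulators' median between -0.36 and -0.053, and 35 to 38 of 41 named genes kept their sign. The sign held in 14 of 26 members. It changed, with these ranges, in Mvk (-0.74 to 0.0034), Fdft1 (-0.24 to 0.27), Sqle (-0.33 to 0.31), Cyp51 (-0.055 to 0.22), Hsd17b7 (-0.18 to 0.16), Srebf2 (-0.36 to 0.086), Insig1 (-0.092 to 0.33), Insig2 (-0.11 to 0.048), Acaca (-0.32 to 0.11), Elovl5 (-0.43 to 0.15), Fads1 (-0.56 to 0.11) and Fads2 (-0.81 to 0.13), and in the pairs Insig1 minus Insig2 (-0.083 to 0.37) and Fads1 minus Fads2 (-0.61 to 0.84). Scd1 minus Scd2 kept its sign (-0.94 to -0.20). The lone library left in a group was assumed to vary like the other group. The cause of these changes was not tested. No paired analysis was possible because replicate numbers were given in accession order and name no shared animal or day.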
